A study of Mus musculus with 2 samples.

Results

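The mesendoderm-like cells described here are single mouse embryonic stem cells in culture that carried at least 15 unique molecular identifiers (UMIs, each standing for 1 captured transcript) of the genes T, Mixl1, Lhx1, Eomes and Mesp1 together. They also had to carry fewer than 50 UMIs of the fibroblast genes Col1a1, Col1a2, Bgn, Mgp and S100a4, at least 18000 UMIs and 1000 genes in all, and at most 10% mitochondrial UMIs. At time 1 this rule found 398 of 25962 cells that passed the same quality filters, and at time 2 it found 601 of 28317. In both libraries together it found 999 of 54279 cells. The 5 marker genes chose the cells, so their levels are a description and carry no test.

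Mesendoderm is the transient state in which cells of the epiblast enter the primitive streak at gastrulation and go on to form mesoderm or definitive endoderm. Wnt and Nodal signals induce it, and T (Brachyury), Eomes and Mixl1 are among the first transcription factors to be switched on. Lhx1 is then used in the anterior streak that gives endoderm and axial mesoderm, and Mesp1 in the nascent mesoderm that gives the heart among other tissues. Embryonic stem cells grown in serum with LIF, a cytokine that sustains self-renewal, are known to hold rare cells that start on this path without any inducer.

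The stem cells were of the mouse strain C3H/HeSn-Paf/J and came from 9 independently derived lines, 3 from XX, 3 from XO and 3 from XY embryos. All lines were pooled and grown on gelatin and irradiated mouse embryonic fibroblast feeders in medium with serum and LIF, with no differentiation treatment. Time 1 is an early passage and time 2 the pool after 10 more passages, which the study used to let chromosome gains accumulate. Each time point is 1 library, and no file used here links a cell to its line. The libraries therefore have no replicate, no p-value is given, and every interval below covers counting error only.

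The mesendoderm-like cells held more UMIs than the other cells. Their median was 53371 UMIs per cell at time 1 and 55648 at time 2, against 44892 and 52454 in all other cells passing the filters. A fixed UMI count picks deeper cells more easily, and the share is given again below at equal depth. Cells with 50 or more UMIs of the fibroblast genes, called feeder-like, numbered 396 at time 1 and 728 at time 2 and were counted among the other cells. Of these, 2 and 11 also had 15 or more marker UMIs. The 2 libraries shared 194 cell barcodes among all cells passing the filters, and none of these was mesendoderm-like in both.

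The label is set below beside lists of other gastrulation genes. These lists were chosen with earlier results of these data known, so they describe the cells and do not test the label. The sequence before 3 gene starts is shown first, for genes the results below turn on. T leads the largest class of the cells at time 2. Sp5 and Fgf5 stood among the genes with the highest ratios over other cells in both libraries, and of 13 genes whose promoters were found they held, with Mesp1, a match to a motif searched. The 250 bases before each start are given 5′ to 3′ on the gene's strand, from RefSeq on GRCm38.p6. They lie at chr17:8434173-8434422 (T, plus strand), chr2:70474673-70474922 (Sp5, plus strand) and chr5:98253934-98254183 (Fgf5, plus strand). Capitals mark motif matches.
T: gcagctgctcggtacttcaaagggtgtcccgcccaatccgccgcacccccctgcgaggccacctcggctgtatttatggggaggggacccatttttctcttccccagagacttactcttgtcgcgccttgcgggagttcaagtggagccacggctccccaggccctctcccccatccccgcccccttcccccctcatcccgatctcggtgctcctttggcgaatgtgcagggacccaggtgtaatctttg
Sp5: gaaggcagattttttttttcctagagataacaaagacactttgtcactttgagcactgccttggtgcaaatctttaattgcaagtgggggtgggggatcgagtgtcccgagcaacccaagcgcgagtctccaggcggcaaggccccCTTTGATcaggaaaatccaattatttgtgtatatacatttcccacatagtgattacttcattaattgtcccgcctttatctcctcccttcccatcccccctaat
Fgf5: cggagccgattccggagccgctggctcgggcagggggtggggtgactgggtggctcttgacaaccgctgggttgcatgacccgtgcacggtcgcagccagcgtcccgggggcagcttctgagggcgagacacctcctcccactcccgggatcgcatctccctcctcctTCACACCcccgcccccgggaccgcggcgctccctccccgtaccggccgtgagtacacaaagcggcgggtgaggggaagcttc
The motifs searched on both strands were the T-box site GGTGTGA, the TCF/LEF site CTTTGAT, bound by the transcription factors of the Wnt pathway, and the FOXH1 site AATNCACA, bound by a partner of Nodal signalling. The TCF/LEF match in Sp5 begins 104 bases before the start. The match in Fgf5 is the T-box site on the other strand and begins 82 bases before the start. Among all 32851 promoter windows cut to the same length, 3.33% held the T-box site, 3.21% the TCF/LEF site and 3.18% the FOXH1 site, so a match is a description of these letters only.

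The marker genes were present at very different levels and seldom all together. Lhx1 stood at 237 CPM (the UMIs of a gene summed over the cells of a group, per 1000000 UMIs of that group) in the mesendoderm-like cells of time 1 and 200 at time 2, against 1.35 and 0.839 in other cells. T stood at 159 and 205 CPM, against 3.83 and 2.82. Eomes had 118 and 85.1 CPM, against 8.06 and 5.29, and was the marker found most widely outside the selected cells. Mixl1 had 58.9 and 36.1 CPM, against 0.990 and 0.520. Mesp1 was the scarcest, at 7.46 and 15.5 CPM against 0.117 and 0.144.

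Most selected cells carried several of the markers. UMIs of 4 of the 5 genes were found in 158 of 398 cells at time 1 and in 210 of 601 at time 2. All 5 were found in 21 cells (5.28%, interval 3.30 to 7.95) and in 79 cells (13.1%, interval 10.5 to 16.1). A single marker had carried 13 cells over the threshold at time 1 and 41 at time 2. Thinned to 18000 UMIs per cell, T was detected in 68.6% of the selected cells at time 1 and 75.7% at time 2. The shares were 5.59% and 3.50% in other cells and 2.53% and 3.98% in feeder-like cells. Without thinning these shares were 81.9% and 87.7%, 10.9% and 7.45%, and 6.57% and 8.24%. The thinned share in other cells was above that in feeder-like cells at time 1 and below it at time 2, where 11 feeder-like cells had 15 or more marker UMIs. Feeder-like cells also held RNA of 8 core pluripotency genes, summing to 873 and 1146 CPM against 2380.5 and 2412.6 in other cells. Their share with T is therefore not a background for cells that lack T. In other cells, 211 at time 1 and 300 at time 2 had 5 or more UMIs of T.

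The sum of marker UMIs had no gap at the threshold. Its median in the selected cells was 29 in both libraries, and its highest value 191 at time 1 and 244 at time 2. Among cells that were not feeder-like, 64.4% at time 1 and 70.6% at time 2 had no marker UMI at all. Just outside the threshold, 68 cells at time 1 and 64 at time 2 had a sum of 13 or 14. Just inside, 49 and 56 cells had a sum of 15 or 16. Foxa2, an endoderm transcription factor that the rule did not use, stood at 58.6 CPM (interval 51.6 to 66.2) just outside and 43.7 (interval 36.6 to 51.7) just inside at time 1. At time 2 it stood at 11.97 (interval 9.04 to 15.5) and 12.1 (interval 8.89 to 16.2). The class is by construction a range of this score.

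T or Lhx1 led most of the cells. When each cell was assigned to the marker with most UMIs, T led 150 cells (37.7%, interval 32.9 to 42.7) at time 1 and 306 cells (50.9%, interval 46.8 to 55.0) at time 2. Lhx1 led 166 cells (41.7%, interval 36.8 to 46.7) and 207 cells (34.4%, interval 30.6 to 38.4). Eomes led 63 (15.8%) and 66 (10.98%). Mixl1 led 12 and 4, Mesp1 led 2 and 4, and ties accounted for 5 and 14. T and Lhx1 were not exclusive of each other, since 89 cells at time 1 and 166 at time 2 had 5 or more UMIs of both, out of 234 and 428 cells with that many of T.

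**Figure D1:**
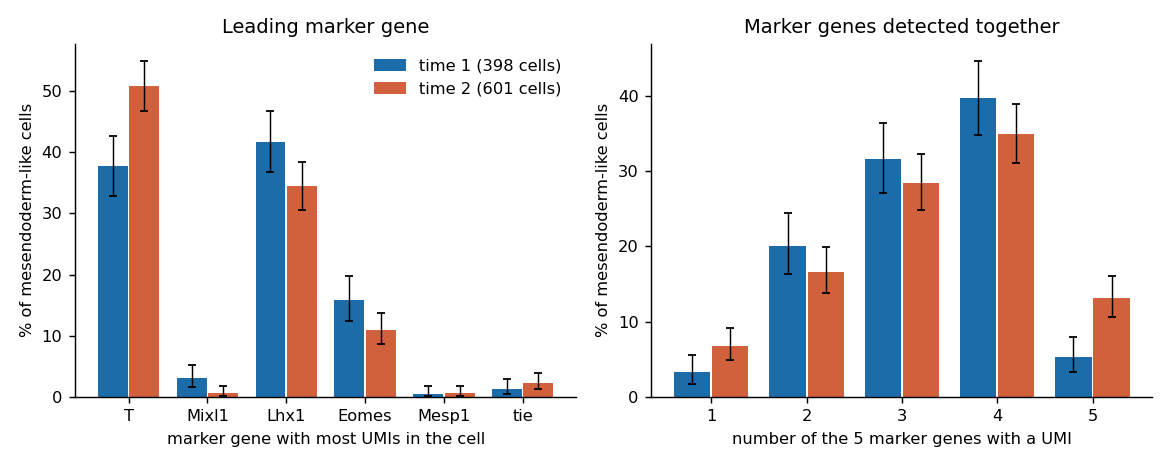
The left panel gives the share of mesendoderm-like cells, in percent, by the marker gene with most UMIs (bars, with exact 95% Clopper-Pearson intervals that cover counting error only), and the right panel the share by how many of the 5 marker genes had a UMI, for time 1 (blue, 398 cells) and time 2 (orange, 601 cells). T led 37.7% of cells at time 1 and 50.9% at time 2, and 4 markers together was the most frequent number in both libraries.

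The selected cells made up 1.53% of cells at time 1 (interval 1.39 to 1.69) and 2.12% at time 2 (interval 1.958 to 2.30), a difference of 0.589 percentage points. The difference was smaller without T. With T left out of the sum, and the threshold kept at 15, the shares were 0.982% and 1.06% and differed by 0.0772 points. With every cell thinned to 18000 UMIs and a threshold of 6 marker UMIs, they were 1.52% and 1.81%.

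Beyond the rule genes, 154 genes were at least 2-fold higher and 130 at least 2-fold lower in the mesendoderm-like than in the other cells of time 1, out of 5574 genes with at least 20 CPM in either group (2.76% and 2.33%). At time 2 the counts were 218 higher and 148 lower of 5385 genes (4.05% and 2.75%). Ratios are of CPM plus 1, on a log2 scale, and the median over all genes tested was 0.09 at time 1 and 0.03 at time 2. Of the genes called higher, 99 were called in both libraries, 64.3% of those of time 1 and 45.4% of those of time 2. Of the genes called lower, 94 were called in both, 72.3% and 63.5%. No gene was called in opposite directions at the 2 times.

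**Figure D2:**
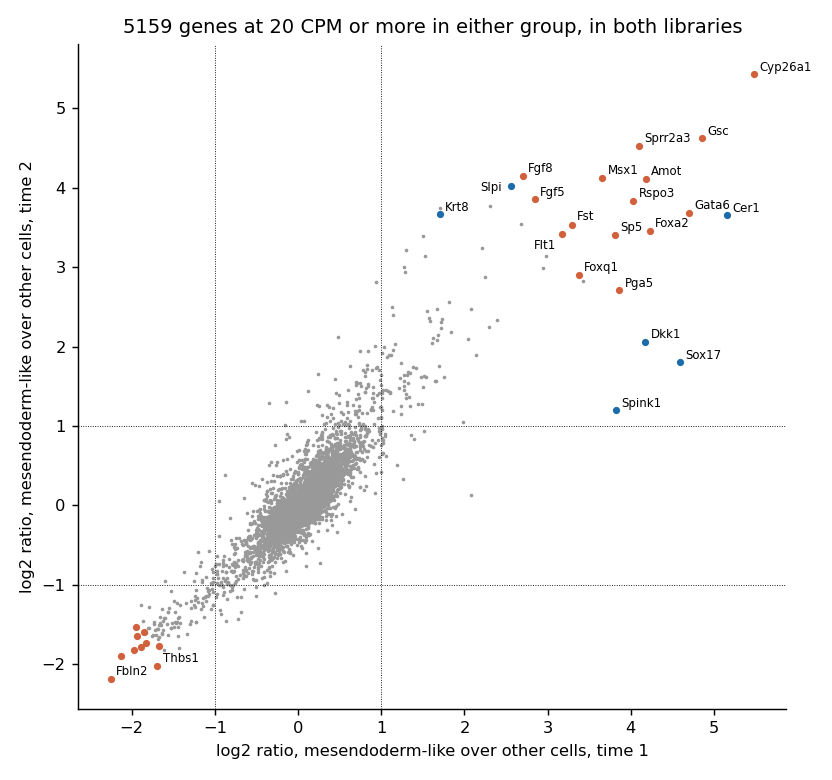
Each grey point is 1 of 5159 genes with at least 20 CPM in either group in both libraries, placed by its log2 ratio of mesendoderm-like over other cells at time 1 (x axis) and time 2 (y axis), and dotted lines mark 2-fold. Orange points are the 15 highest and 10 lowest genes by the mean of both ratios, and blue points are other genes named in the text. Sox17, Dkk1 and Spink1 lie well below the diagonal, with ratios of 4.59, 4.17 and 3.82 at time 1 and 1.80, 2.06 and 1.19 at time 2.

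The gene that most distinguished the cells in both libraries was Cyp26a1 (chr19:37697798-37701536), which encodes the enzyme that degrades retinoic acid and is expressed in the early streak. It stood at 121 CPM against 1.72 in other cells at time 1 and at 85.6 against 1.01 at time 2, log2 ratios of 5.48 and 5.43. The gene had 3 or more UMIs in 59.8% of mesendoderm-like cells at time 1 and 55.1% at time 2, against 0.644% and 0.511% of other cells that were not feeder-like. By the mean of both ratios, among genes called in both libraries, Gsc (chr12:104471209-104473330), the homeobox gene of the anterior streak or organizer, followed. It stood at 123 against 3.25 CPM and 62.1 against 1.56, ratios of 4.86 and 4.63. Amot, which encodes the junction protein angiomotin, had ratios of 4.18 and 4.11, and Msx1, a homeobox target of BMP, 3.66 and 4.13. Flt1, a receptor for vascular endothelial growth factor, had ratios of 3.18 and 3.41, and Foxq1, a forkhead transcription factor, 3.38 and 2.90. Flt1 stood at 125 and 54.0 CPM in the mesendoderm-like cells and at 67.2 and 31.7 in feeder-like cells. Without Lhx1 in the marker sum the time 1 ratios of Cyp26a1, Amot and Foxq1 were 4.80, 3.23 and 2.29, and Foxq1 had 1.99 at time 2. Without T the time 2 ratios of Flt1 and Foxq1 were 4.02 and 3.79.

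Some of the highest ratios came from few cells. Sprr2a3, a member of a cluster of near-identical genes for small proline-rich proteins whose reads cannot be assigned with certainty, had ratios of 4.10 and 4.53. It had 3 or more UMIs in 34 of 398 cells at time 1 and 88 of 601 at time 2, and 97.9% and 86.6% of its UMIs lay in the tenth of cells that held most. Pga5, a pepsinogen gene, had ratios of 3.86 and 2.71 and 3 or more UMIs in 33 and 17 cells. At least 1 UMI of it was found in 17.8% and 8.82% of mesendoderm-like cells, against 7.07% and 10.1% of other cells. With Lhx1 left out of the marker sum its time 1 ratio was 0.19, no longer 2-fold, and its time 2 ratio 1.58. For Foxq1, 78 of 398 cells at time 1 had 3 or more UMIs. Of its UMIs there, 75.6% lay in the tenth of cells that held most. At time 2 a UMI of Foxq1 was found in 23.6% of mesendoderm-like and 4.39% of other cells. By contrast Fgf8 reached 3 UMIs in 391 of 398 cells and in 571 of 601.

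Genes of the primitive streak, from a list of 20 that left out the markers, stood mostly above the other cells. At time 1, 19 of the 20 had a ratio above 0 (list median 1.82), and at time 2 all 20 had (list median 2.15). Over all genes with a UMI, 42.0% and 40.7% had a ratio above 0. Of the list, 9 genes reached 20 CPM at time 1 and 8 at time 2, of which 8 and 7 were 2-fold higher. In each library 6 of these reached 20 CPM only in the mesendoderm-like cells. A gene that reaches the minimum in 1 group only can be called in 1 direction only, so the counts at 20 CPM in the lists below are descriptions. Fgf8, a growth factor needed for cells to leave the streak, stood at 386 CPM against 58.7 in other cells at time 1 and at 265 against 14.02 at time 2. Its ratio was larger at time 2, 4.15 against 2.70, although its level in the mesendoderm-like cells was lower there. Wnt3, whose product induces the streak, stood at 32.8 against 4.29 CPM at time 1 and 34.5 against 2.05 at time 2. Fst, which encodes the activin and BMP antagonist follistatin, stood at 122 against 11.6 and at 112 against 8.75. Feeder-like cells, counted among the other cells, held 68.1 and 90.9 CPM of Fst. Sp5 stood at 148 against 9.61 and 61.3 against 4.86. Nodal was the gene of the list that reached 20 CPM but not 2-fold in either library, with ratios of 0.24 and 0.68.

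Genes of definitive endoderm stood above other cells in both libraries. All 16 genes of the list had a ratio above 0 in both libraries, and the list medians were 2.61 and 1.85. Of them, 12 reached 20 CPM at time 1 and 8 at time 2, of which 8 and 6 did so only in the mesendoderm-like cells, and 11 and 7 were 2-fold higher. Over the 8 genes that reached it in both libraries the medians were 2.98 and 2.45. Gsc and Dkk1 belong to this list and to the streak list. Sox17 (chr1:4490931-4497354), a transcription factor that specifies endoderm, stood at 39.5 CPM (interval 37.1 to 42.0) in the mesendoderm-like cells of time 1 and at 5.12 (interval 4.46 to 5.85) in those of time 2. Other cells had 0.684 and 0.754 CPM of Sox17. Cer1 (chr4:82881751-82885148), which encodes the secreted inhibitor Cerberus of the anterior endoderm, stood at 49.9 and 12.2 CPM, against 0.430 and 0.0468. Foxa2 (chr2:148042877-148046969), a forkhead factor of endoderm and notochord, stood at 75.2 and 20.7 CPM, against 3.07 and 0.977. Gata6, a zinc-finger factor of endoderm and early mesoderm, was closer between the libraries, at 44.6 and 31.8 CPM against 0.761 and 1.55.

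Gata6 and Sox17 are also genes of primitive endoderm, an extraembryonic lineage, so the rest of that list of 14 genes is given beside them. Of the 14, 11 had a ratio above 0 at time 1 and 13 at time 2, with medians over the whole list of 0.69 and 0.68. At time 1, 3 of 6 genes at 20 CPM were 2-fold higher, namely Gata6, Sox17 and Foxq1, and at time 2, 2 of 5. Of these 6 and 5 genes, 4 and 3 reached 20 CPM only in the mesendoderm-like cells. Without feeder-like cells among the other cells, Col4a1 also passed 2-fold at time 1, with a ratio of 1.22. Gata4, a zinc-finger factor gene of this lineage, had ratios of 2.36 and 2.00 under 20 CPM. Sparc, abundant in parietal endoderm, had ratios of -0.09 and 0.10, and Col4a1, a basement membrane collagen gene, 0.74 and 0.57. Sox7 and Afp stayed under 1 CPM in the mesendoderm-like cells of both libraries.

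Few genes of nascent mesoderm reached 20 CPM. Of the 20 genes of that list, 16 had a ratio above 0 at time 1 and 18 at time 2. At time 1, 3 reached 20 CPM, of which 2 were 2-fold higher, and at time 2, 5 did, of which 4 were. Of the 3 and 5 genes, 2 and 4 reached 20 CPM only in the mesendoderm-like cells. The medians over all 20 were 0.61 and 1.32. Rspo3, which encodes a secreted enhancer of Wnt signalling, stood at 39.3 against 1.47 CPM and 37.4 against 1.69. Aplnr, the apelin receptor gene of migrating mesoderm, had 11.5 and 6.90 CPM against 0.118 and 0.0693. Tbx6 and Msgn1, factors of paraxial mesoderm, stood at 0.387 and 0.0387 CPM at time 1 and at 0.379 and 0.0948 at time 2. None of 10 genes of cardiac mesoderm reached 20 CPM.

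Genes of naive pluripotency, the state of the inner cell mass that these culture conditions sustain, stood below the other cells. All 12 genes of the list had a ratio below 0 in both libraries, with medians of -1.29 and -1.47. At 20 CPM, 5 of 8 were 2-fold lower at time 1 and 10 of 11 at time 2, and 4 and 5 of these 8 and 11 genes reached the minimum only in other cells. Zfp42 (Rex1), a zinc-finger gene used as a marker of that state, stood at 15.2 against 47.0 CPM and 36.0 against 114. Klf2, a Krüppel-like factor of the naive network, stood at 100 against 281 and 134 against 374. Dppa3 (Stella), a maternal factor gene that marks naive cells, stood at 70.9 against 227 and 47.2 against 163. The ratios were further from 0 when the 10% of cells with the highest scores for doublets (droplets with more than 1 cell) were left out, an alternative chosen after seeing the data. The medians at 20 CPM then went from -1.28 and -1.47 to -2.26 and -2.85, and the ratios of Dppa3 from -1.67 and -1.77 to -3.70 and -3.23. With thinned cells these medians were -1.57 and -2.30. Klf5 had the smallest differences of the list, with ratios of -0.12 and -0.46.

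Core pluripotency genes were lower in part. Of 8 genes, 3 were 2-fold lower in each library and none higher (medians -0.35 and -0.42). These were Sox2, at 107 against 219 CPM and 126 against 269, and the chromatin factor genes Utf1 (ratios -1.42 and -1.26) and Dppa4 (-1.44 and -1.42). Pou5f1 (Oct4), which streak cells also express, stood at 501 against 679 and 595 against 760 CPM. It had 3 or more UMIs in 379 of 398 and 589 of 601 mesendoderm-like cells. Tdgf1 (Cripto), the Nodal co-receptor gene, had ratios of 0.60 and 0.56.

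Genes of the primed epiblast, the state between the inner cell mass and the streak, were higher in part. In each library 4 of 8 at 20 CPM were 2-fold higher and none lower, and 1 of the 8 at time 1 and 3 at time 2 reached it only in the mesendoderm-like cells. Of all 10 genes of the list, 5 had a ratio above 0 and 5 below at time 1, and 6 and 4 at time 2, with medians of 0.33 and 0.46. Dnmt3a, a DNA methyltransferase gene, had ratios of -0.28 and -0.59, and Foxd3, a forkhead gene under 20 CPM, -0.46 and -1.25. Fgf5, a growth factor gene that marks this epiblast, stood at 181 against 24.3 CPM at time 1 and 112 against 6.82 at time 2. Otx2, a homeobox gene of the epiblast and of anterior endoderm, stood at 157 against 34.7 and 75.6 against 19.6. Zic2 and Sox4 were the other two genes. Of 10 primordial germ cell genes, 4 reached 20 CPM in each library, of which 2 were 2-fold lower and none higher. In each library 1 of the 4 reached it only in other cells.

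**Figure D3:**
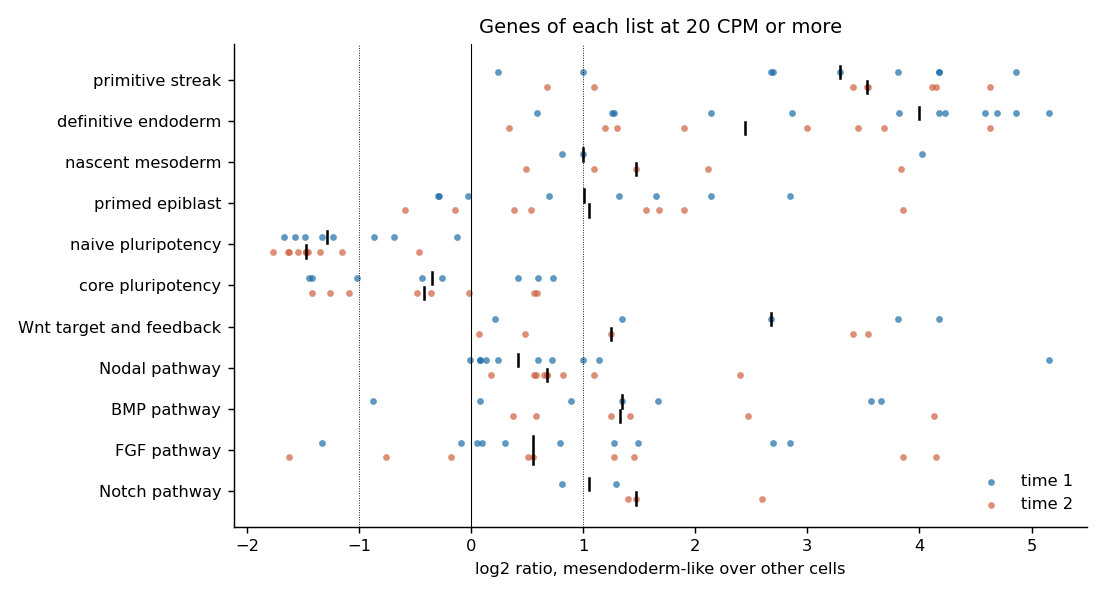
Each point is a gene of the list named on the y axis with at least 20 CPM in either group, placed by its log2 ratio of mesendoderm-like over other cells (x axis) at time 1 (blue) or time 2 (orange), with black bars at the medians of the points shown and dotted lines at 2-fold. Definitive endoderm has 12 points at time 1 and 8 at time 2, since Sox17, Cer1, Dkk1 and Hhex were under 20 CPM at time 2, so its 2 bars are over different genes. All points of naive pluripotency lie below 0.

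Signalling genes differed by pathway. In the Wnt list, 4 of 5 genes at 20 CPM were 2-fold higher at time 1 and 3 of 5 at time 2, and in each library 4 of the 5 reached 20 CPM only in the mesendoderm-like cells. Over all 15 genes of the list the medians were 0.68 and 0.48. Dkk1, a secreted Wnt inhibitor and target, stood at 28.5 against 0.640 CPM at time 1 and 5.36 against 0.525 at time 2. Axin2, a target often used as a readout of the pathway, stayed under 20 CPM, at 17.4 against 5.58 and 10.0 against 4.53. In the Nodal list, 3 of 10 genes were 2-fold higher at time 1 and 2 of 9 at time 2, with none lower, and the medians over all 14 genes were 0.33 and 0.61. In each library 1 gene of the Nodal list reached 20 CPM only in the mesendoderm-like cells. Nodal itself had 61.5 CPM against 52.0 at time 1 and 61.2 against 37.8 at time 2. Lefty2, its antagonist and target, stood at 342 against 170 and 276 against 129, while Lefty1 had ratios of -0.01 and 0.68. Lefty2 passed 2-fold at time 1 by little (1.00) and did not without feeder-like cells (0.98), which leaves 2 of 10 genes in the Nodal list, 7 of 9 in the streak list and 1 of 3 in the nascent mesoderm list.

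In the BMP list, 4 of 7 genes were 2-fold higher at time 1 and 4 of 6 at time 2, of which 3 of the 7 and 2 of the 6 reached 20 CPM only in the mesendoderm-like cells. The medians over all 13 genes were 1.33 and 1.25. Id1, a direct BMP target, stood at 179 against 55.6 CPM and 429 against 76.8. In the FGF list, 4 genes were 2-fold higher and 1 lower in each library, of 10 at time 1 and 9 at time 2. Of these, 1 of the 10 and 5 of the 9 reached 20 CPM only in the mesendoderm-like cells, and 1 in each library only in other cells. The medians over all 16 genes were 0.20 and 0.20. Dusp6, which encodes a phosphatase that feeds back on the pathway, stood at 79.1 against 32.1 and 47.6 against 16.8. Fgf4, the ligand gene of naive cells, was the one that was lower, at 12.8 against 33.7 and 15.7 against 50.5. In the Notch list, 1 of 2 genes was 2-fold higher at time 1 and 3 of 3 at time 2, and the medians over all 10 were 0.18 and 0.85. Of these, 1 of the 2 and 2 of the 3 reached 20 CPM only in the mesendoderm-like cells and could be called only higher. The examples from the BMP and Notch lists, and from all lists in the next paragraphs, were chosen after their values were seen.

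Cadherin and keratin genes differed in how they stood to other cells. Cdh1 (E-cadherin) stood at 101 against 92.4 CPM and 81.1 against 67.1, and Epcam, an epithelial adhesion gene, at 345 against 384 and 269 against 280. Cdh2 (N-cadherin), which ingressing cells take up, stood at 60.3 against 4.71 and 48.7 against 6.03. Snai1, which encodes a repressor of E-cadherin, had 9.16 against 4.78 and 11.3 against 2.37 CPM and did not reach the minimum. Of the list of epithelial and mesenchymal genes, 10 reached 20 CPM in each library, 1 of them at time 1 and 2 at time 2 only in the mesendoderm-like cells. Of the 10, 3 were 2-fold higher at time 1 and 5 at time 2, and none was lower. The epithelial keratin genes Krt8 and Krt18 were among them in both libraries, Krt8 at 456 against 139 CPM and 622 against 48.0, and Krt18 at 301 against 123 and 296 against 37.8. Vim (vimentin), a mesenchymal filament gene, stood at 283 against 141 and 630 against 220.

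None of 18 S phase genes at time 1 or 19 at time 2, and none of 21 G2/M genes in either library, differed 2-fold, with medians of -0.16 and -0.13 for S phase and 0.06 and -0.04 for G2/M. Of 14 trophoblast genes, 3 reached 20 CPM at time 1 and 2 at time 2. Tfap2c, a transcription factor gene, was 2-fold lower at time 1 (31.4 against 63.9 CPM), and Peg10, an imprinted gene, 2-fold higher at time 2. The list summed to 142 against 193 CPM at time 1 and 143 against 103 at time 2. Of 12 neural genes, 2 reached 20 CPM, namely Nes, a filament gene of neural progenitors, at 73.1 against 42.0 and 87.2 against 26.1 CPM, and Tubb3, a neuronal tubulin gene, at 22.5 against 41.7 and 30.7 against 70.9. The trophoblast factor gene Elf5 stood at 0.116 and 0.0711 CPM, and the neural genes Sox1 and Pax6 stood under 3 CPM in both libraries. The 10 genes of the two-cell-like state summed to 5.53 CPM against 9.60 at time 1 and 5.88 against 2.79 at time 2.

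The 10 lowest genes by the mean of both ratios were Fbln2, Acta2, Timp1, Thbs1, Spp1, Khdc3, Calcoco2, Crabp1, Mylpf and Dppa3. The first 5 and Crabp1 were far more abundant in feeder-like cells, which could not be selected. Fbln2, an extracellular matrix gene, stood at 5.49 CPM in the mesendoderm-like and 29.9 in the other cells of time 1, but at 1157 in feeder-like cells and 5.92 in other cells without them. Without feeder-like cells the time 2 ratios of Fbln2, Acta2 and Thbs1 turned from -2.18, -1.90 and -2.03 to 0.49, 0.80 and 0.62, and their time 1 ratios from -2.25, -2.13 and -1.69 to -0.09, -0.71 and -0.10. Timp1 was then no longer 2-fold lower in either library (-0.81 and -0.52), nor Crabp1 at time 2 (-1.04 and -0.84), while Spp1 was (-1.14 and -1.13). Khdc3, Calcoco2, Mylpf and Dppa3 kept time 2 ratios of -1.67, -1.76, -1.62 and -1.79 without them. Without the 10% of highest doublet scores, the ratios of Khdc3, Calcoco2 and Mylpf lay between -3.29 and -3.82 in both libraries. Khdc3, a gene of the oocyte and early embryo, stood at 9.28 against 38.3 CPM and 25.7 against 82.7.

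The fibroblast genes were also summed with and without feeder-like cells among the other cells. The 12 genes of a second fibroblast list, not used in the rule, summed to 20.7 CPM at time 1 and 23.8 at time 2, against 47.2 and 46.1 in other cells and 1558 and 1132 in feeder-like cells, and against 15.0 and 8.51 in other cells without the feeder-like. Col5a1, a collagen gene, made up most of the sum in the mesendoderm-like cells, at 10.5 and 15.7 CPM, against 3.56 and 1.92 in other cells without the feeder-like. The 5 fibroblast genes of the rule summed to 17.4 and 15.7 CPM in the mesendoderm-like cells, against 24.5 and 13.4 in those other cells. Lum, a matrix proteoglycan gene, was at 0 UMIs at time 1. The part of fibroblast RNA in the ratios was not tested beyond leaving out feeder-like cells. Without feeder-like cells 165 genes were higher (2.96%) and 125 lower (2.24%) at time 1, and 240 higher (4.46%) and 148 lower (2.75%) at time 2.

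Over bins of the marker sum at time 1, Cyp26a1 was higher in each higher bin, Sox2 was lower in each, and Fgf8 and Pou5f1 were not ordered throughout. Cyp26a1 stood at 0.923 CPM in cells of time 1 with no marker UMI, 1.95 with 1 to 4, 9.48 with 5 to 14, 64.8 with 15 to 29, 148 with 30 to 59 and 235 with 60 or more. Fgf8 stood at 33.8, 77.7, 238, 363, 417 and 397 CPM over the same bins, so that most of its range lay below the threshold. Sox2 stood at 241, 203, 134, 119, 103 and 82.6 CPM. Pou5f1 was level up to the threshold and lower above it, at 682, 696, 701, 568, 472 and 356 CPM. At time 2 Pou5f1 stood at 776, 773, 744, 661, 563 and 465 CPM. Median UMIs per cell were not ordered throughout, at 42177, 49295, 54390, 49015, 53597 and 58500 over the bins of time 1. At time 2 they were 49959, 60922, 67382, 54617, 54980 and 64725. The part of depth in these levels was not tested.

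**Figure D4:**
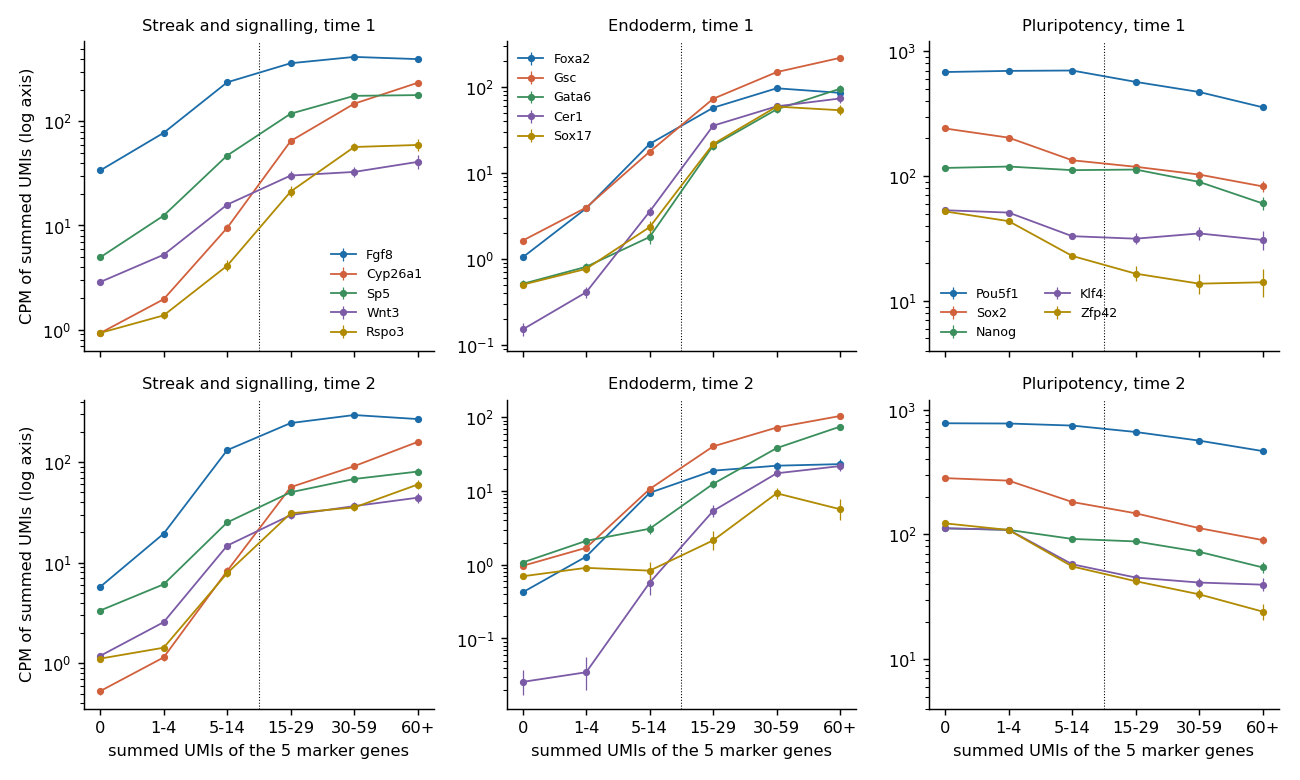
CPM of summed UMIs on a log axis (y) for 15 genes in cells grouped by the summed UMIs of the 5 marker genes (x), for time 1 (top) and time 2 (bottom), in cells that were not feeder-like. Bars are exact 95% Poisson intervals that cover counting error only, and the dotted line marks the threshold of 15. Fgf8 climbs mostly left of the line, Cyp26a1 goes from 9.48 to 64.8 CPM across it at time 1, and Pou5f1 is level left of it and lower right of it at time 1.

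Of the 16 endoderm genes, 14 stood higher in cells led by Lhx1 than in cells led by T at time 1 and all 16 at time 2, with median log2 ratios of 2.52 and 2.09. No share over all genes is given for this comparison, so these counts only describe the list. At time 1 Sox17 stood at 104 CPM in Lhx1-led and 0.766 in T-led cells, Cer1 at 116 and 11.9, and Gata6 at 104 and 8.62. At time 2 Sox17 stood at 13.5 and 1.28, Cer1 at 32.2 and 1.65, and Gata6 at 74.4 and 6.91. Foxa2 was closer, at 94.9 and 58.9 CPM at time 1 and 28.7 and 14.3 at time 2, and Krt19 stood lower in the Lhx1-led cells of time 1, at 99.1 and 132. Otx2 stood at 302 and 60.1 at time 1 and 153 and 27.8 at time 2. Pou5f1 was lower in the Lhx1-led cells, at 356 against 560 and 464 against 670 CPM. Cdx2, a caudal homeobox gene, was low in both but higher in T-led cells, at 6.13 against 0.739 CPM at time 1 and 12.7 against 1.44 at time 2. Lhx1-led cells also had a higher median marker sum, 41 against 26 at time 1 and 43 against 27 at time 2, and its part in these differences was not tested.

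Endoderm genes were also read by time point in cells led by 1 marker, a class that the rule genes define. In Lhx1-led cells Sox17 had 104 CPM at time 1 and 13.5 at time 2, Cer1 116 and 32.2, Foxa2 94.9 and 28.7, and Gsc 224 and 116. Gata6 had 104 and 74.4 CPM there, and Krt19 99.1 and 115. In T-led cells Foxa2 stood at 58.9 and 14.3 CPM, and in Eomes-led cells at 52.4 and 26.1.

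A small group carried Mesp1. Mesendoderm-like cells with 3 or more Mesp1 UMIs numbered 20 at time 1 and 67 at time 2. At time 2 Snai1 stood at 33.2 CPM in them and 6.33 in mesendoderm-like cells with no Mesp1 UMI, Rspo3 at 77.2 and 25.9, Mesp2 at 20.4 and 1.41, and Cdh1 at 53.2 and 88.0. Sox17 stood at 0.214 and 6.36 CPM in the same groups. At time 1 Snai1 stood at 48.5 and 5.998 CPM and Sox17 at 0.745 and 43.4. Cells with 3 or more Sox17 UMIs, 86 at time 1 and 25 at time 2, had 0.608 and 0.430 CPM of Mesp1. These values rest on 3 and 1 Mesp1 UMIs. Median UMIs per cell were 50329 and 91440 in them, against 54070 and 55572 in mesendoderm-like cells with no Sox17 UMI. The part of depth in these groups was not tested.

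Cells were also counted by 2 small gene sets. A sum of 3 or more UMIs of Foxa2, Sox17, Cer1 and Gsc, endoderm and organizer genes, was met by 317 of 398 cells at time 1 (79.6%, interval 75.4 to 83.5) and 330 of 601 at time 2 (54.9%, interval 50.8 to 58.9). A sum of 3 or more UMIs of the mesoderm genes Mesp1, Mesp2, Tbx6 and Msgn1 was met by 25 cells (6.28%, interval 4.11 to 9.13) and 86 cells (14.3%, interval 11.6 to 17.4). Both were met by 17 and 47 cells, and neither by 18.3% and 38.6%. These gene sets were chosen after values had been seen. Mesp1 is one of the rule genes and alone carried 20 of the 25 and 67 of the 86 cells, while Tbx6 and Msgn1 reached 3 UMIs in no cell, so the second set mostly restates a gene that chose the cells.

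Between the time points few genes of the mesendoderm-like cells differed 2-fold. Of 5502 genes with at least 20 CPM at either time, 24 were higher at time 2 (0.436%) and 59 lower (1.07%). In other cells it was 48 higher (0.901%) and 123 lower (2.31%) of 5326. Of the endoderm list, 7 of 12 genes were lower at time 2, but Sox17, Cer1, Dkk1 and Hhex reached 20 CPM only at time 1 and could be called only lower. Of the 8 that reached it at both times, 3 were lower (Foxa2, Otx2 and Spink1) and none higher. In other cells 3 of the 12 were lower (Foxa2, Krt19 and Cldn6). Sox17, Dkk1 and Cer1 stood under 1 CPM there at both times, where a ratio of CPM plus 1 cannot be 2-fold lower. Sox17 had the lowest log2 ratio of time 2 over time 1, -2.73, with 0.06 in other cells, followed by Dkk1 with -2.22 and -0.11. Cer1 had -1.95 and -0.45, although its level in other cells went from 0.430 to 0.0468 CPM. Without Lhx1 in the marker sum the time ratio of Sox17 was -2.12.

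Other genes moved alike in both kinds of cells. H19, an imprinted noncoding RNA, had time ratios of -2.16 in the mesendoderm-like and -2.23 in other cells, and Egr1, an immediate early gene, -2.03 and -1.80. Tdh, the threonine dehydrogenase gene of mouse stem cells, had 1.92 and 1.69, and the histone gene Hist1h1b 1.74 and 1.98. B930036N10Rik had 1.86 and 1.74, and 1700097N02Rik 1.73 and 1.41. In thinned cells the ratios of Tdh and 1700097N02Rik in the mesendoderm-like cells were 1.23 and 1.13. Slpi, which encodes a secreted protease inhibitor, differed from these, with 15.6 and 54.7 CPM in mesendoderm-like cells against 1.82 and 2.41 in others. It had 3 or more UMIs in 35 of 398 cells at time 1 and 146 of 601 at time 2.

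The mesendoderm-like cells were less often X-high at time 1. For X dosage, the UMIs of 384 X-linked genes in a cell were divided by those of 11118 autosomal genes and set against the median of other cells with 2 or more Y-linked UMIs, since XY cells carry 1 X chromosome. A cell at 1.2 or more was called X-high. At time 1, 34 of 398 mesendoderm-like cells were X-high (8.54%, interval 5.99 to 11.7), against 41.1% of other cells that were not feeder-like (interval 40.5 to 41.7). Read the other way, 34 of 10371 X-high cells were mesendoderm-like (0.328%) and 364 of the remaining 15195 (2.40%). By leading marker, 12 of 150 T-led, 16 of 166 Lhx1-led and 6 of 63 Eomes-led cells were X-high. Xist, the RNA that coats an inactive X, had a UMI in 14.1% of the mesendoderm-like and 34.5% of these other cells.

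At time 2 the order depended on the threshold. There 46 of 601 mesendoderm-like cells (7.65%, interval 5.66 to 10.1) and 14.6% of other cells were X-high. At a threshold of 1.1 the order turned, with 30.6% against 22.3%, and at 1.3 it was 3.16% against 12.1%. At time 1 it kept its order at both, with 16.8% against 51.8% and 6.28% against 33.6%. The median X dosage of the mesendoderm-like cells was 0.997 at time 1 and 1.05 at time 2, against 1.11 and 0.986.

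Gains of chromosomes 1, 8 and 14 were rarer in the mesendoderm-like cells of time 2. A gain was called where a chromosome's share of a cell's autosomal UMIs was at least 1.3 times the median of the other cells of time 1. Chromosome 1 was called gained in 134 of 601 mesendoderm-like cells (22.3%, interval 19.0 to 25.8) and 55.3% of other cells that were not feeder-like. Chromosome 8 followed with 165 cells (27.5%, interval 23.9 to 31.2) against 50.6%, and chromosome 14 with 12 cells (2.00%, interval 1.04 to 3.46) against 18.7%. Some other chromosomes were called more often, among them chromosome 11 in 22 cells (3.66%, interval 2.31 to 5.49) against 2.18% (interval 2.00 to 2.36). Chromosome 19 was called in 19 cells (3.16%, interval 1.91 to 4.89) against 2.04%, which the interval includes. Chromosome 3 was called in 10 cells (1.66%, interval 0.801 to 3.04) against 0.211%. The same call marked chromosome 3 in 57.3% of feeder-like cells at time 1 and 48.2% at time 2, and chromosome 5 in 37.6% and 24.7%. The part of expression differences between kinds of cells in these calls was not tested. No gain of 1, 8 or 14 was called in 54.9% of mesendoderm-like and 22.4% of other cells. Gains of 1 and 8 together were called in 4.83% and 28.7%. A gain of 1 alone was about as frequent in both, 16.1% and 16.5%, as was a gain of 8 alone, 22.6% and 21.3%.

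At time 1 a gain of any autosome was called in 5.03% of mesendoderm-like and 10.0% of other cells that were not feeder-like. Chromosome 8 was called in 1.51% and 4.98% of them, and chromosome 3 in 1.51% and 0.274%. Chromosomes 1 and 14 were called in 0 of 398 mesendoderm-like cells, against 0.803% and 0.358% of other cells. A count of 0 allows a share of up to 0.754% by 3 counts and of up to 0.923% by the exact interval, which includes the share of other cells for both. The ratios were not exactly 1 in the mesendoderm-like cells even there. The median ratio of the mesendoderm-like cells was 1.01 for chromosome 1 and 0.959 for chromosome 8, and over all autosomes it lay between 0.943 and 1.06.

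The lower shares of chromosomes 1 and 8 at time 2 were seen under each setting where both groups were counted against time 1 cells. These settings were other gain thresholds, removal of the highest doublet scores, and shares over other autosomes. Under the remaining settings only the share of mesendoderm-like cells was computed. At a gain threshold of 1.2 the shares were 31.8% against 61.1% for chromosome 1 and 48.4% against 72.1% for chromosome 8. At 1.4 they were 15.0% against 43.0% and 2.83% against 13.6%. Over autosomes other than 1, 8 and 14 they were 26.5% against 58.0% and 38.6% against 67.6%.

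**Figure D5:**
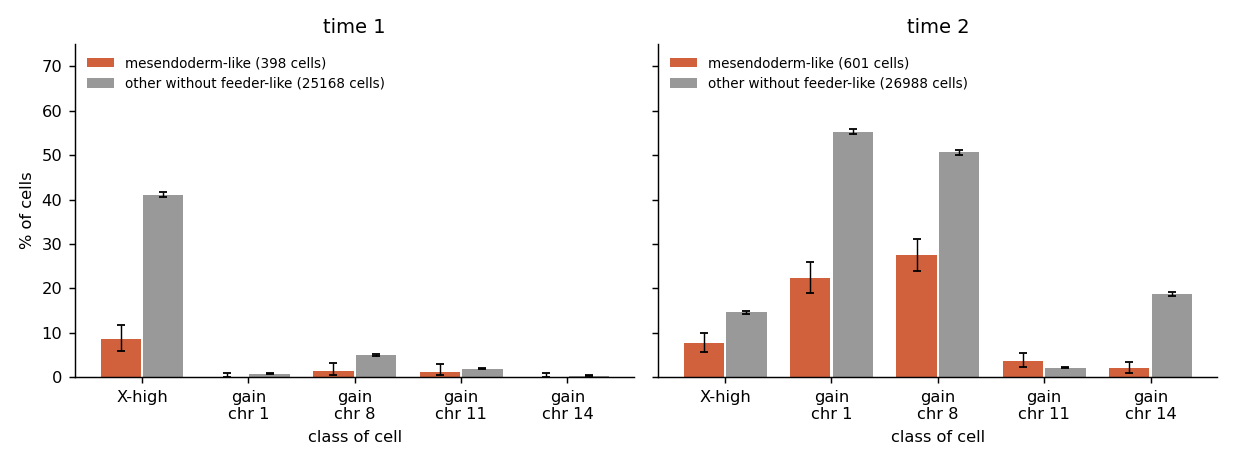
Share of cells in percent (y axis, from 0) that were X-high or carried a gain of chromosome 1, 8, 11 or 14 at time 1 (left) and time 2 (right), for mesendoderm-like cells (orange) and other cells without feeder-like cells (grey), with exact 95% Clopper-Pearson intervals that cover counting error only. The orange bars stand at 8.54% against 41.1% for X-high at time 1 and at 22.3% against 55.3% for a gain of chromosome 1 at time 2.

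Doublets, droplets that held more than 1 cell, were not removed. The 10% of cells with the highest Scrublet doublet scores held 21.6% of the mesendoderm-like cells at time 1 and 25.3% at time 2, against 10.1% and 9.89% of other cells. Without them the cells made up 1.34% and 1.77% of cells. The X-high share was then 1.92% against 40.7% at time 1, and the gain of chromosome 1 was called in 18.9% against 56.9% at time 2. Since the 9 lines were pooled and no file used here links cells to lines, X dosage, chromosome gains and the line a cell came from cannot be told apart.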

How the data were processed

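Single-cell RNA libraries of 2 samples, 1 per time point, were used. The deposited values are unnormalized UMI counts for each gene in each barcode. The file headers name Cell Ranger 6.1.2. The submitters' processing notes name bcl2fastq 2.20.0.422 and the build GRCm38 (mm10). The files held 145288 and 52242 barcodes, with at least 500 and 524 UMIs. Of 32285 genes, 32158 matched the annotation used for coordinates.

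Cells with at least 18000 UMIs, 1000 genes and at most 10% mitochondrial UMIs were kept, 25962 at time 1 and 28317 at time 2, and were selected as the report states. The members and gene lists were chosen with earlier results of these data known. UMIs were summed over the cells of a group, scaled to CPM, and compared as log2 of CPM plus 1. Genes with at least 20 CPM in either group were called at 2-fold, and the 10 rule genes were never counted. With 1 library per time point there was no test. Intervals are exact 95% Clopper-Pearson (shares) and Poisson (summed UMIs) and cover counting error only. UMI totals of kept cells were 1367020358 and 1773821623.

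Genes were named by rule: the 15 highest and 10 lowest by the mean ratio among genes 2-fold in both libraries, the 5 highest and 5 lowest between times, and examples from lists. X dosage and gains left out genes seen in under 5% of either group, ribosomal protein genes, rule genes and genes above 3% of their chromosome's UMIs. Thinning drew 18000 UMIs per cell. Alternatives varied the filters, the marker rule, thinning, doublets, pseudocount, minimum, scaling (TMM), weighting, comparison cells and thresholds. The log2 ratio was tested on simulated counts and the selection rule on a small made-up set of cells. The 2-fold calls were not tested in this way. Python 3.11.15, numpy 2.4.6, scipy 1.17.1, pandas 2.3.3, scanpy 1.11.5, matplotlib 3.10.9, R 4.3.3 and edgeR 4.0.16 (TMM only) were used.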

Additional observations from a re-analysis of the deposited data

Results flagged for a closer look

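Peg10, an imprinted retrotransposon-derived gene of the trophoblast list, stood lower in mesendoderm-like than in other cells at time 1 and higher at time 2. Its log2 ratio was -0.15 at time 1 (63.9 against 70.8 CPM) and 1.305 at time 2 (77.9 against 30.9), a difference of 1.45. Most of the difference lay in the other cells, where its time ratio was -1.17 against 0.28 in the mesendoderm-like cells. A gain of chromosome 11 was called at time 1 in 1.26% of mesendoderm-like cells (interval 0.409 to 2.91). This interval includes the 1.94% of other cells that were not feeder-like, so a lower share is not shown there. At time 2 the call was more frequent, in 3.66% (interval 2.31 to 5.49) against 2.18%. The gap to other cells thus went from -0.683 to 1.49 percentage points, a difference of 2.17 points. It rested on 5 of 398 and 22 of 601 cells. With 1 library per time point neither difference was tested, and both were singled out after their values were seen.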

How the results depend on the processing

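With 1 library per time point no result has a replicate check, and depth limits genes near 20 CPM. In all 29 settings were tried, and those on X dosage and gains gave no gene ratios. Of 1360 values of 60 single-gene results under the others, 1354 kept their direction. The exceptions were the time 2 ratios of Fbln2, Acta2 and Thbs1, at 0.49, 0.80 and 0.62 without feeder-like cells. They were 0.50, 0.82 and 0.70 against cells with 0 marker UMIs that were also not feeder-like. Changing the pseudocount or the CPM minimum could not turn a direction, and these genes were picked for extreme ratios. Sizes were less stable. Among shares and counts of genes called, 62 alternative values moved beyond a set limit and 305 did not. Among all other results, 670 moved, 6 reversed and 1312 did neither. The share of mesendoderm-like cells at time 1 was 1.203% with a UMI minimum of 10000 and 1.89% with 30000, and time 2 minus time 1 was 0.859 and 0.307 points. With a marker sum of at least 10 the shares were 2.31% and 2.78%, and with at least 30 they were 0.743% and 1.05%, 0.302 points apart, with gains of chromosomes 1 and 14 in 17.2% and 1.01% at time 2. Without T in the sum they were 0.982% and 1.06%, 0.0772 points apart, with a gain of chromosome 1 in 13.3%. Without Lhx1 they were 1.14% and 1.67%, with a gain of chromosome 14 in 0.846%, and without Eomes 1.18% and 1.76%. Thinned to 18000 UMIs, the share at time 2 was 1.81%, 0.294 points above time 1, with 339 genes higher and 256 lower at time 2 and 44 higher between times. The planned removal of Scrublet's calls was not run, since its automatic threshold marked 0.223% and 0.0742% of cells. In its place, chosen after seeing the data, removing the 10% with the highest scores gave shares of 1.34% and 1.77%, 217 genes lower at time 1, 363 higher and 274 lower at time 2, an X-high share of 1.92% at time 1, and gains of chromosomes 1 and 14 in 18.9% and 0.891% at time 2. A pseudocount of 5 CPM left 15 genes higher between times. With no CPM minimum, 402 genes were higher and 454 lower at time 1, 686 and 450 at time 2, and 84 and 177 between times. With a minimum of 50 CPM these were 67 and 64, 106 and 74, and 11 and 27. X-high shares were 16.8% and 30.6% at a threshold of 1.1, and 3.16% at time 2 at 1.3. At a gain threshold of 1.2, chromosomes 1, 8 and 14 were called in 31.8%, 48.4% and 6.16% at time 2. At 1.4, chromosome 8 was called in 0.251% at time 1, and chromosomes 1, 8, 11 and 14 in 15.0%, 2.83%, 1.83% and 0.998% at time 2. Against the median of the same library, chromosomes 1 and 8 were called in 0% at time 2. Among all other cells of that library, gains of them were called in 54.1% and 49.5% against the time 1 reference. Over autosomes other than 1, 8 and 14, also chosen after seeing the data, chromosomes 1, 8 and 14 were called in 26.5%, 38.6% and 3.99%. No paired analysis was possible because each time point is 1 library.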

Other observations

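Several more genes stood above the other cells, and all were chosen after their values were seen, so they describe no gene group. Gbp2, an interferon-induced GTPase gene, stood at 65.4 against 19.3 CPM at time 1 and 97.6 against 6.38 at time 2, log2 ratios of 1.71 and 3.74. Psmb8, a subunit gene of the immunoproteasome, stood at 113 against 38.7 and 101 against 10.5. Isg15 had ratios of 1.13 and 2.49 and Tapbp, which helps load peptides on MHC class I, 0.84 and 1.94. For Gbp2, Psmb8, Isg15 and Tapbp the level in other cells was lower at time 2, with time ratios of -1.46, -1.78, -1.01 and -1.12.

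The keratin gene Krt19 had ratios of 1.28 and 3.00, and Dsp, which encodes the junction protein desmoplakin, 0.93 and 2.81. Car2, a carbonic anhydrase gene, stood at 387 against 82.4 CPM and 539 against 56.0, and had 3 or more UMIs in 383 of 398 and 585 of 601 mesendoderm-like cells. Sfrp1, a secreted Wnt antagonist gene, went the other way, with a ratio of 2.08 at time 1 and 0.13 at time 2, where its level in other cells was 43.6 CPM against 15.99 at time 1.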
